A study of Mus musculus with 10 samples.

Results

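The genes described here are 10 genes of antibodies and of the cells that make them, read in bulk RNA sequencing of 10 B16F10 tumors. B16F10 is a mouse melanoma cell line. The rows were chosen by symbol from 55401 gene rows: the heavy chain constant genes *Ighm*, *Ighg1*, *Ighg2b*, *Ighg2c*, *Ighg3* and *Igha*, the kappa light chain constant gene *Igkc*, the joining chain gene *Jchain*, and the B cell genes *Cd79a* and *Ms4a1*. All 10 were found in every tumor's table. Of the tumors, 5 grew from *Mir25* KO cells, in which CRISPR guides disrupt the precursor of the microRNA miR-25, and 5 from cells with a non-targeting control guide (NTC). The labels do not say which guide or clone gave each KO tumor.

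Both groups had the same hosts and the same treatment. The hosts were C57BL/6J mice, all female by the methods. By the labels, they received 50000 tumor cells under the skin of the left flank on day 0. The methods give a larger number. On days 1 and 4 they received 1000000 irradiated (100 Gy) B16 cells engineered to secrete GM-CSF (GVAX) in the other flank. On days 6, 9 and 12 they received a rat antibody to PD-1 at 10 mg/kg, and the tumors are labelled day 15. The antibody was given as a protein, so it adds no mouse immunoglobulin transcript. The hosts keep their own B cells, and any immunoglobulin transcript is read among an excess of melanoma RNA. The comparison of KO with NTC tumors addresses whether antibody and B cell transcripts differ between treated tumors that differ in the tumor cells' *Mir25*.

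B cells first make IgM, whose heavy chain uses the constant gene *Ighm*. After activation, class switching joins the same variable region to a constant gene further along the locus, so that IgG or IgA is made with unchanged antigen specificity. Plasma cells, the end stage, secrete antibody in quantity: they hold abundant heavy chain, light chain and *Jchain* RNA (the joining chain links IgM and IgA units) and lose *Ms4a1* (CD20), a surface protein of mature B cells. *Cd79a* is a signalling chain of the B cell receptor. In tumors, antibody RNA can therefore be plentiful where B cell surface genes are scarce.

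On the GRCm38 assembly the 6 heavy chain constant genes lie on the minus strand of chromosome 12, in the order *Ighm* (chr12:113418558-113422730), *Ighg3* (chr12:113356224-113361232), *Ighg1* (chr12:113325240-113330523), *Ighg2b* (chr12:113302965-113307933), *Ighg2c* (chr12:113285325-113288932) and *Igha* (chr12:113254830-113260236). *Igkc* is at chr6:70726435-70726966, *Jchain* at chr5:88519809-88527891, *Cd79a* at chr7:24897381-24902197 and *Ms4a1* at chr19:11249675-11266241. C57BL/6 mice carry *Ighg2c* where some other strains carry *Ighg2a*. The IgG subclasses differ most visibly in the hinge, a short exon between the antigen-binding arm and the stem, whose cysteines tie the heavy chains together. The hinge exons (exon 2 of each gene, plus-sense of the transcript, from the GENCODE M21 transcripts) are shown because the isotype shares depend on reads of these related genes being told apart; capitals mark the in-frame cysteine codons.
Ighg1 (chr12:113329844-113329882, 4 cysteine codons): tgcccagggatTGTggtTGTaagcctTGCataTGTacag
Ighg2b (chr12:113307261-113307326, 4 cysteine codons): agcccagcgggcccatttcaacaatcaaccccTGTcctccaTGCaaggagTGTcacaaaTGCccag
Ighg2c (chr12:113288263-113288325, 3 cysteine codons): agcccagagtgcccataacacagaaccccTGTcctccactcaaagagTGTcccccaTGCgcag
Ighg3 (chr12:113360529-113360576, 1 cysteine codon): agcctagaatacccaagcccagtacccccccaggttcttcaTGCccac
Some 50-base windows in each gene's exons recur in another annotated immunoglobulin gene, constant or variable. They are 5.49% of the windows in *Ighg2c*, 4.15% in *Ighg2b*, 1.58% in *Ighg3* and 0.39% in *Ighg1*, and none in *Ighm*, *Igha* or *Igkc*. No 100-base window was shared. A few reads of the IgG genes may therefore have been split or dropped by the counting, and the IgG subclass shares carry that limit.

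Between 23243707 and 27006075 reads were counted on genes in the KO tumors and between 11896643 and 28682130 in the NTC tumors. NTC replicate 1 had the lowest total, with 42.9% of its reads outside genes and 33193 genes with a count, so it stands apart from the other 9 libraries and the results it moves most are also given without it. *Mir25* itself is listed at 0 in all 10 tumors, so it does not check the labels. A bulk library does not separate fewer cells of a type from less RNA per cell. Nothing in the labels ties tumors to separate experiments, and the p-values measure the spread between these tumors.

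*Ighm* had the most counts of the 10 genes in every tumor, although per kilobase of exon *Igkc* exceeded it in KO replicates 1 and 2 and NTC replicates 1 and 4. *Ighm* had 2438, 926, 311, 206 and 732 counts in KO replicates 1 to 5, and 278, 80, 713, 116 and 1615 in NTC replicates 1 to 5. The ranges overlap almost wholly, with the highest value in KO replicate 1 and the lowest in NTC replicate 2. In CPM, counts scaled to library size and TMM factors, the mean was 37.1 ± 37.3 (SD, n = 5) in KO and 24.7 ± 22.6 (SD, n = 5) in NTC tumors. Fitted by edgeR, *Ighm* was 0.60 higher in KO on the log2 scale (SE 0.88, adjusted p = 0.867).

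*Igkc*, the constant part of most mouse light chains, had 978, 738, 57, 20 and 193 counts in the KO tumors and 148, 3, 132, 35 and 444 in the NTC tumors. Its highest CPM was 407 times its lowest, and both groups held tumors near each end. The mean was 15.9 ± 17.4 CPM (SD, n = 5) in KO and 8.21 ± 8.91 (SD, n = 5) in NTC tumors, a log2 difference of 0.98 (SE 1.21, edgeR adjusted p = 0.839). *Jchain* had 272, 160, 6, 5 and 71 counts in KO and 30, 1, 42, 1 and 137 in NTC tumors. The tumors rich in *Igkc* were also the ones rich in *Jchain*, whichever group they belonged to. *Jchain* differed by 1.06 on the log2 scale (SE 1.30, edgeR adjusted p = 0.838). Without KO replicate 1 the differences were 0.28 for *Igkc*, 0.27 for *Jchain* and -0.20 for *Ighm*. Without NTC replicate 1 that of *Igkc* was 1.55, from a mean of 5.27 CPM in the other 4 NTC tumors, and without NTC replicate 5 those of *Jchain* and *Ighm* were 1.75 and 1.17.

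**Figure D1:**
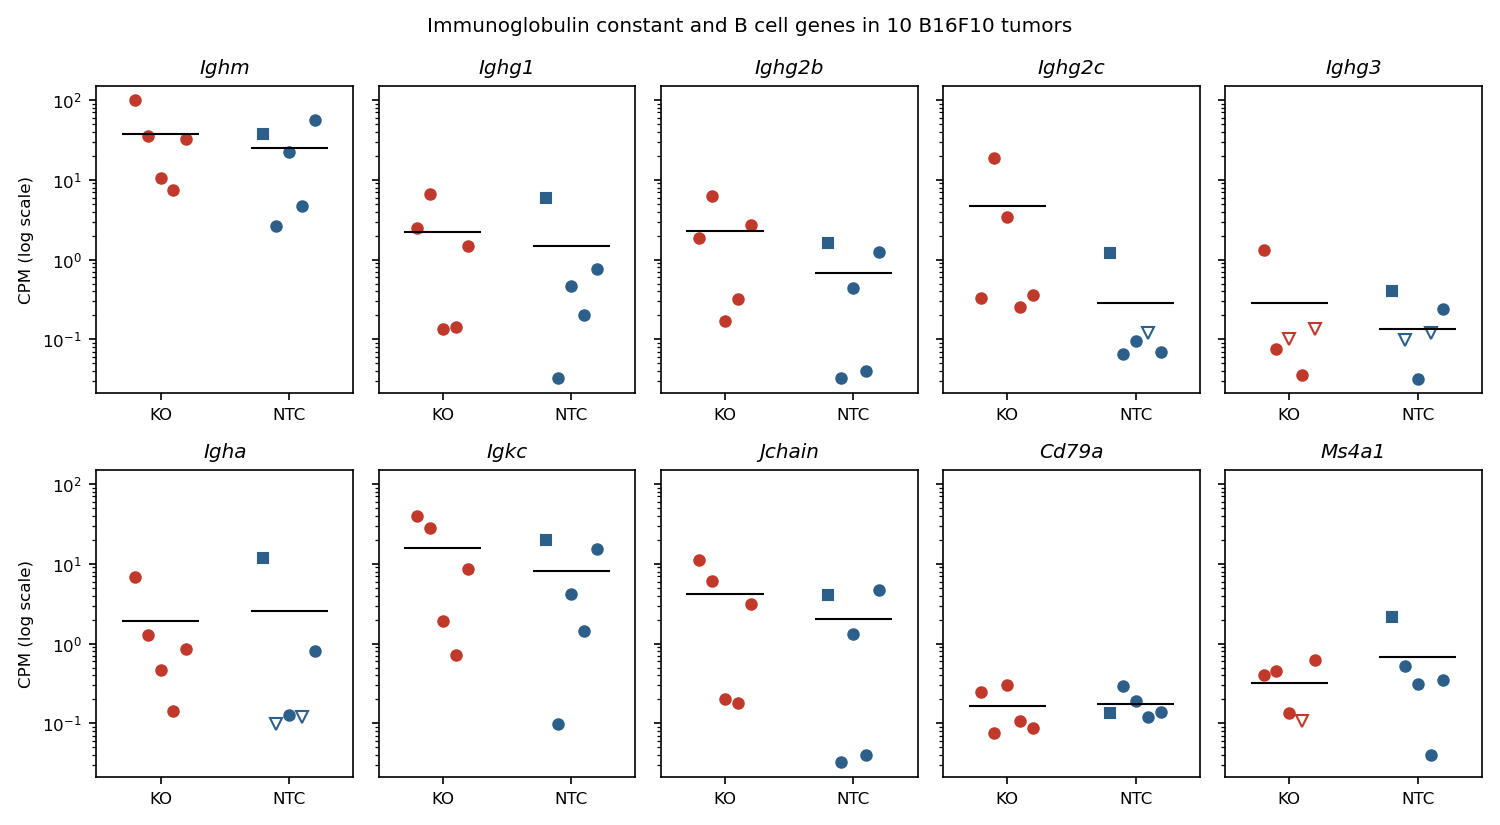
Normalised level of each gene in 5 KO and 5 NTC tumors, in CPM on a log axis. Filled points are tumors, the square is NTC replicate 1, open triangles mark a count of 0 drawn at the level of 3 counts, and lines are group means. The groups overlap for every gene: *Igkc* runs from 0.721 to 40.1 CPM in KO and from 0.0985 to 19.9 in NTC tumors.

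Each switched isotype had fewer counts than *Ighm* in every tumor, and their levels were uneven. *Ighg1*, the heavy chain of IgG1, had 61, 176, 4, 4 and 33 counts in KO and 44, 1, 15, 5 and 22 in NTC tumors. *Ighg2b*, the heavy chain of IgG2b, had 46, 167, 5, 9 and 61 counts in KO and 12, 1, 14, 1 and 36 in NTC tumors. KO replicate 2 was highest for both, and NTC replicate 2 had a single count of each. The log2 differences were 0.73 for *Ighg1* (SE 1.29, edgeR adjusted p = 0.886) and 1.88 for *Ighg2b* (SE 1.13, edgeR adjusted p = 0.657). Without KO replicate 2 they were -0.33 and 1.02, and without NTC replicate 1 that of *Ighg1* was 2.50.

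*Ighg2c*, the heavy chain of IgG2c, had 8, 499, 101, 7 and 8 counts in KO and 9, 2, 3, 0 and 2 in NTC tumors. KO replicates 2 and 3 held most of all 639 counts, while the other 3 KO tumors and NTC replicate 1 had similar counts to one another. In CPM, NTC replicate 1 (1.21) lay above KO replicates 1, 4 and 5, which ran from 0.252 to 0.356, whereas NTC replicates 2 to 5 reached at most 0.0946, below every KO tumor. *Ighg2c* did not pass the filter on low counts. In the fit without a filter it was 4.74 higher in KO on the log2 scale (SE 1.31), with an unadjusted p of 0.00228 that did not pass the correction over 40689 genes (edgeR adjusted p = 0.466).

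*Ighg3*, the heavy chain of IgG3, had 32, 2, 0, 1 and 0 counts in KO and 3, 0, 1, 0 and 7 in NTC tumors, and only KO replicate 1 exceeded 10. *Igha*, the heavy chain of IgA, had 168, 34, 14, 4 and 19 counts in KO and 89, 0, 4, 0 and 23 in NTC tumors. The pair of tumors with the highest *Igha*, KO replicate 1 and NTC replicate 1, come from opposite groups. The log2 difference of *Igha* was -0.29 (SE 1.58, edgeR adjusted p = 0.965), and without NTC replicate 1 it was 2.98 (SE 1.33, edgeR adjusted p = 0.245).

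*Ms4a1* and *Cd79a* were near the detection limit everywhere. *Ms4a1* had 10, 12, 4, 0 and 14 counts in KO and 16, 16, 10, 1 and 10 in NTC tumors. It was the highest in CPM in NTC replicate 1 (2.16), the shallowest library, and its log2 difference was -0.86 (SE 0.97, edgeR adjusted p = 0.823), or -0.016 without that library. *Cd79a* had 6, 2, 9, 3 and 2 counts in KO and 1, 9, 6, 3 and 4 in NTC tumors, and did not pass the filter. At these counts no difference in either gene passed the correction in any setting that tested it.

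Over all genes, edgeR tested 15821 and called 3 of them (0.019%) at an adjusted p under 0.05 and an absolute log2 fold change above 1. Of the 10 antibody and B cell genes, 7 passed the filter and none was called by edgeR. DESeq2 gave no p for *Igha* and called none of the other 6. None of the 7 in edgeR, and none of the 6 in DESeq2, had an unadjusted p under 0.05; in edgeR 3.99% of all genes did with a higher level in KO. A log2 fold change above 1 was found for 2 of the 7, *Ighg2b* and *Jchain*, against 3.43% of all genes. For none of the 7 did every KO tumor lie above every NTC tumor, against 0.866% of all genes. The median log2 fold change of the 7 was 0.73, beside 0.0076 over all genes tested.

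Levels can be compared between genes per kilobase of exon. On that scale the medians over the 10 tumors ordered the genes as *Ighm* (14.6 CPM per kb), *Igkc* (12.0), *Jchain* (0.891), *Ighg2b* (0.316), *Ighg1* (0.239), *Igha* (0.238), *Ighg2c* (0.219), *Cd79a* (0.0938), *Ms4a1* (0.0612) and *Ighg3* (0.0135). *Ighm* and *Igkc* are close, as are the 4 genes from *Ighg2b* to *Ighg2c*, and the spread between tumors is far wider than these gaps. The balance between heavy and light chain varied too. *Ighm* had 2.49, 1.26, 5.46, 10.3 and 3.79 counts for each *Igkc* count in KO tumors and 1.88, 26.7, 5.40, 3.31 and 3.64 in NTC tumors. The highest of these rests on 3 *Igkc* counts, in NTC replicate 2.

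The isotype make-up divided the tumors in a different way from the total amount. The switched isotypes together made up 11.4%, 48.7%, 28.5%, 10.8% and 14.2% of the heavy chain constant counts in KO replicates 1 to 5. In NTC replicates 1 to 5 they made up 36.1%, 4.76%, 4.93%, 4.92% and 5.28%. NTC replicates 2 to 5 were thus close to one another and below all 5 KO tumors, whereas NTC replicate 1 exceeded 4 of the 5. These percentages rest on 231 to 2753 heavy chain counts in KO and 84 to 1705 in NTC tumors.

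Put as the share of *Ighm*, the mean was 77.3% ± 16.2 (SD, n = 5) in KO and 88.8% ± 13.9 (SD, n = 5) in NTC tumors. The difference of -11.5 percentage points did not pass a two-sided exact permutation test (p = 0.246, adjusted p = 0.492 over 6 shares and 2 ratios). The smallest p that 5 tumors against 5 allow is 0.00794. Without NTC replicate 1, the 4 NTC tumors ran from 94.7% to 95.2%, against 51.3% to 89.2% in KO. The difference was then -17.8 points (exact permutation p = 0.0317, adjusted p = 0.127). Without KO replicate 2 it was -5.04 points (exact permutation p = 0.524, adjusted p = 0.868). The *Ighm* shares had narrow intervals in the tumors with many heavy chain counts: 88.6% in KO replicate 1 (95% Wilson interval 87.3% to 89.7%) and 94.7% in NTC replicate 5 (93.6% to 95.7%). In NTC replicate 2 the interval ran from 88.4% to 98.1% and reached those of KO replicates 1 and 4, and in NTC replicate 4 it ran from 89.7% to 97.7% and reached those of the same KO tumors. Wilson intervals cover counting error only. They may be too narrow even for that, since reads without molecular identifiers are not independent molecules.

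**Figure D2:**
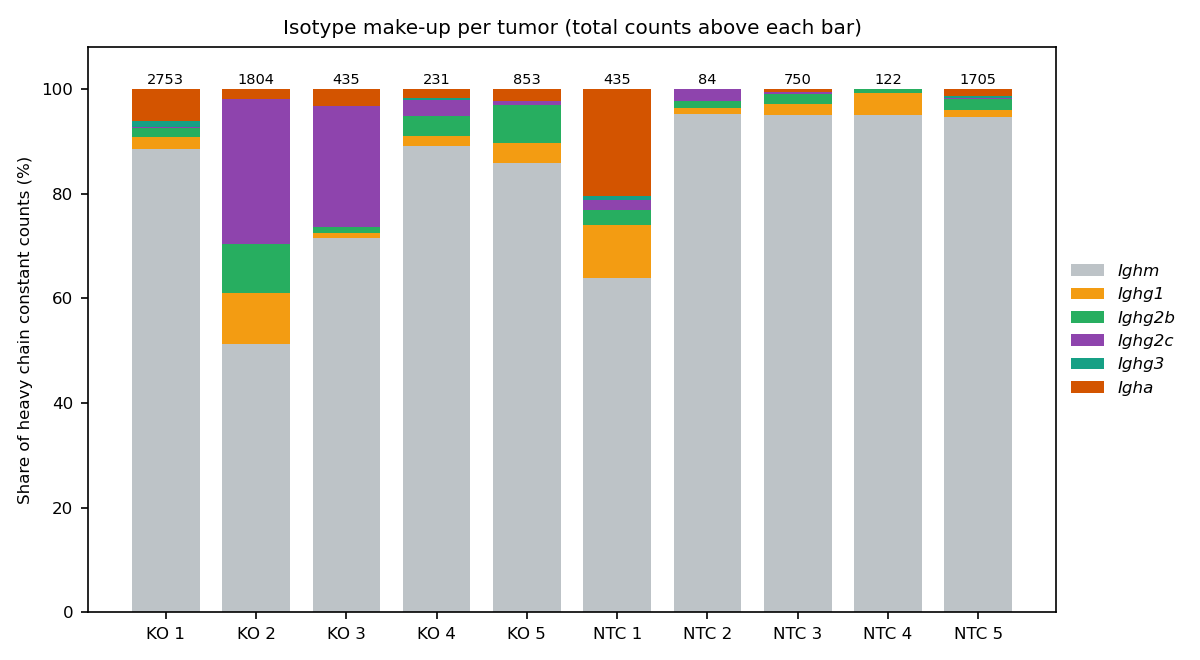
Share of each isotype in the heavy chain constant counts of each tumor, in percent, with the total count above each bar. *Ighg2c* fills 27.7% and 23.2% of the bars of KO replicates 2 and 3, *Igha* 20.5% of NTC replicate 1, and *Ighm* about 95% of NTC replicates 2 to 5 (94.7% to 95.2%).

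The switched part was led by different isotypes in different tumors. In KO replicate 2, *Ighg2c* made up 27.7% of the heavy chain counts (95% Wilson interval 25.6% to 29.8%), with *Ighg1* at 9.76% and *Ighg2b* at 9.26%. In KO replicate 3, *Ighg2c* made up 23.2% (19.5% to 27.4%) while *Ighg1* and *Ighg2b* together had 9 counts. In KO replicate 1, *Igha* led at 6.10% (5.27% to 7.06%), and in NTC replicate 1 it led at 20.5% (16.9% to 24.5%). *Ighg2b* led in KO replicates 4 and 5 and in NTC replicate 5, *Ighg1* in NTC replicates 3 and 4, and *Ighg2c*, with 2 counts, in NTC replicate 2.

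Tested one by one, none of the isotype shares differed between KO and NTC tumors beyond their spread. The share of *Ighg2c* was 11.0% ± 13.3 (SD, n = 5) in KO and 0.993% ± 1.14 (SD, n = 5) in NTC tumors (exact permutation p = 0.143, adjusted p = 0.381). The share of *Ighg2b* was 4.62% ± 3.51 in KO and 1.75% ± 0.765 in NTC tumors (n = 5 each, exact permutation p = 0.135, adjusted p = 0.381). The shares of *Ighg1* (-0.04 percentage points), *Ighg3* (0.0945) and *Igha* (-1.44) had adjusted p-values of 1.0 by the same exact permutation test. Taken as shares of the switched isotypes alone, the KO minus NTC difference was -23.1 percentage points for *Ighg1* (exact permutation p = 0.0238, adjusted p = 0.167) and 21.9 points for *Ighg2c* (exact permutation p = 0.214, adjusted p = 0.5). Without KO replicate 2, the difference in the share of all heavy chain counts was 5.88 points for *Ighg2c* in place of 10.0, and 1.72 points for *Ighg2b* in place of 2.88. The *Igha* difference turned to 2.56 points without NTC replicate 1 (exact permutation p = 0.0238, adjusted p = 0.127).

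Reads counted on the variable genes describe the antibody regions in these tumors. Sequence sharing among variable genes was not examined, so reads that fit several of them may be missing from their counts. The tables hold 185 heavy chain variable (*Ighv*) rows, of which 114 had a read in some tumor, 1607 reads in all, and 160 kappa variable (*Igkv*) rows, of which 110 had a read, 1918 reads in all. The most-read genes were *Ighv11-2* (248 reads) and *Igkv14-126* (330 reads), which encode the paired chains of well-known phosphatidylcholine-binding antibodies of B-1a cells. Below are the last coding bases of 6 variable genes that led a tumor, from GENCODE M21 on GRCm38. Capitals mark the conserved cysteine codon and everything after it, where the segment runs into the antigen-contacting loop.
Ighv11-2 (chr12:114048241-114048330, minus strand): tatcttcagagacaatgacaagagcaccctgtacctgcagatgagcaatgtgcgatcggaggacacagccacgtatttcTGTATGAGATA
Igkv14-126 (chr6:67896553-67896642, plus strand): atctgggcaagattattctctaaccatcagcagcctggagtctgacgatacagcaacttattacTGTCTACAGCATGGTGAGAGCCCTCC
Ighv2-9-1 (chr12:113769850-113769939, minus strand): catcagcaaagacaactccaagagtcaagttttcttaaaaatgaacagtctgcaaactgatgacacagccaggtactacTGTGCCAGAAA
Igkv3-12 (chr6:70518760-70518849, plus strand): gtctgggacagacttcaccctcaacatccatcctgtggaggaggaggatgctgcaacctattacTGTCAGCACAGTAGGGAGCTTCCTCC
Ighv6-6 (chr12:114434788-114434877, minus strand): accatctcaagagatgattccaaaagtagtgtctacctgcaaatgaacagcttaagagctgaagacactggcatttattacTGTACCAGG
Igkv1-117 (chr6:68121738-68121827, plus strand): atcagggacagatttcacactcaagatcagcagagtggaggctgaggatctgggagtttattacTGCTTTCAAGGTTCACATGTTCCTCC

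*Ighv11-2* and *Igkv14-126* were found together in tumors of both groups. *Ighv11-2* had 136, 18, 0, 1 and 29 reads in KO and 0, 0, 22, 0 and 42 in NTC tumors. *Igkv14-126* had 178, 38, 2, 0 and 20 reads in KO and 0, 0, 36, 2 and 54 in NTC tumors. Each led its family in KO replicates 1 and 5 and in NTC replicate 3, where they reached 36.7% of *Ighv* and 46.7% of *Igkv* reads. In NTC replicate 5 *Ighv11-2* led the *Ighv* reads (17.8%), whereas *Igkv1-110* (72 of 276 reads) led the *Igkv* reads. NTC replicate 1 had none of either, among 126 *Ighv* and 182 *Igkv* reads.

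The pair of KO tumors with the most *Ighg2c* had other leading genes. So did NTC replicate 1, with 9 counts of *Ighg2c*: its leading genes had 30 of 126 *Ighv* and 33 of 182 *Igkv* reads. KO replicate 4 and NTC replicates 2 and 4, with few reads, were also led by other genes. In KO replicate 2, *Ighv2-9-1* had 114 of 312 *Ighv* reads (36.5%, 95% Wilson interval 31.4% to 42.0%) and *Igkv3-12* had 167 of 432 *Igkv* reads (38.7%, 34.2% to 43.3%). No other tumor had more than 3 reads of either gene. In KO replicate 3, *Ighv6-6* had 24 of 46 *Ighv* reads (52.2%, 38.1% to 65.9%) and *Igkv1-117* had 34 of 60 *Igkv* reads (56.7%, 44.1% to 68.4%). *Ighv6-6* and *Igkv1-117* were singled out after their values were seen. Whether the leading heavy and light chain genes of a tumor came from the same cells was not tested, nor whether they were joined to *Ighg2c*. *Ighv7-1*, the third most read heavy chain variable gene, had 59 of its 71 reads in KO replicate 1.

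**Figure D3:**
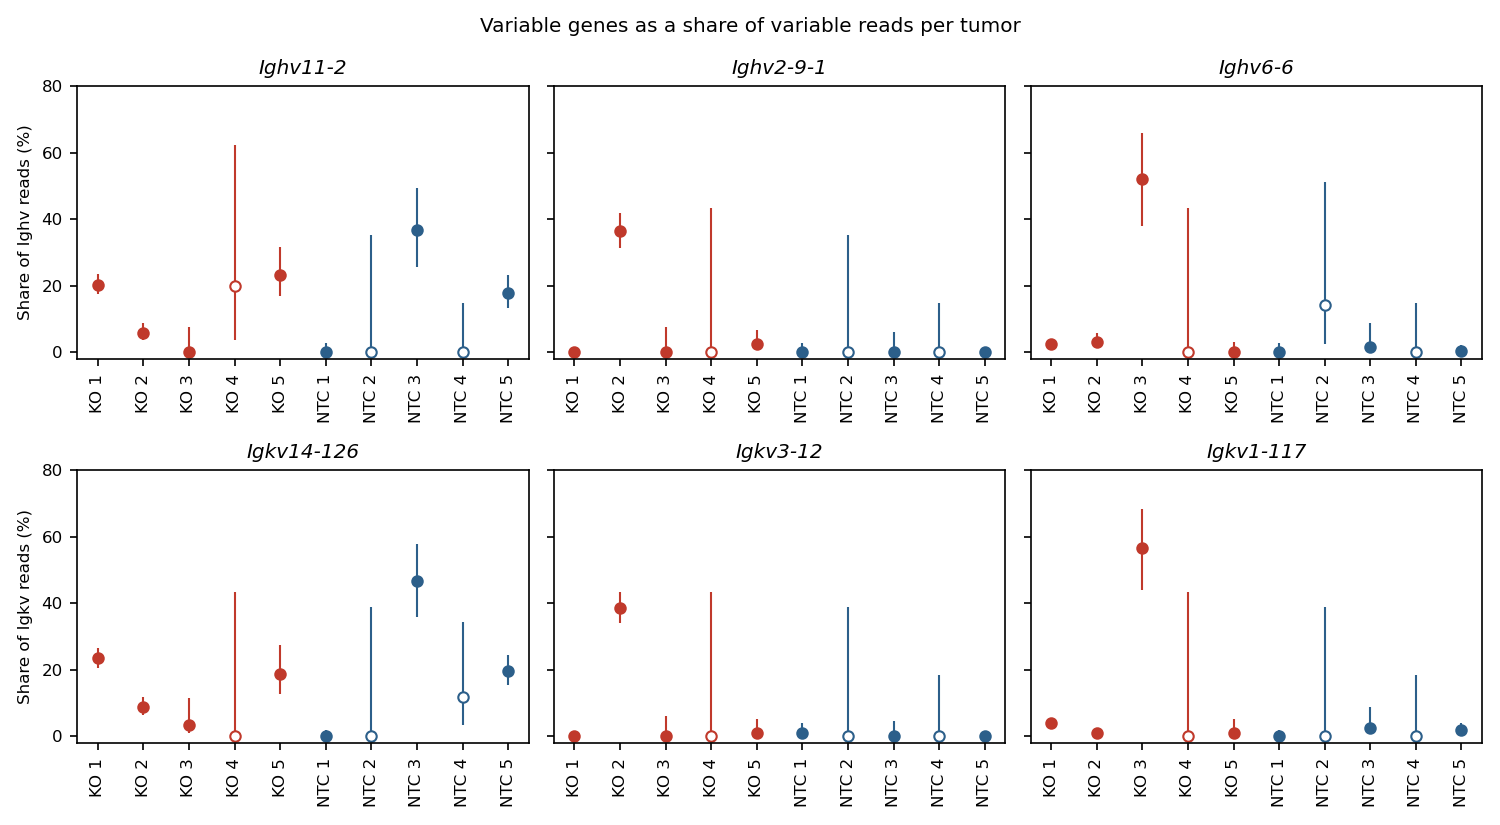
Share of *Ighv* reads (upper row) and of *Igkv* reads (lower row) on 6 variable genes in each tumor, in percent, with 95% Wilson intervals; open points have fewer than 40 reads of the family. *Ighv11-2* and *Igkv14-126* are spread over tumors of both groups, whereas among tumors with filled points the other 4 genes are high in 1 tumor each, KO replicate 2 or KO replicate 3.

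The number of variable genes in use depends on the number of reads, so it was compared as the number expected among 40 reads, in the 7 tumors that reached that number. NTC replicate 1 held the most, 23.1 *Ighv* and 26.2 *Igkv* genes. The others held 10.9 to 21.2 *Ighv* genes and 9.22 to 19.8 *Igkv* genes. Among them, KO replicate 1 was the most varied (21.2 and 19.8), and NTC replicate 3 the least (10.9 and 9.22). KO replicate 4 and NTC replicates 2 and 4 had too few reads to be placed. NTC replicate 1, which ranks first, is the library with 42.9% of its reads outside genes and 33193 genes with a count. Whether scattered reads raised its variety was not tested.

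Lambda light chains, a minority in mice, were counted on *Iglc1*, *Iglc2* and *Iglc3*, related genes that are summed here. Their summed counts were 156, 89, 15, 1 and 43 in KO and 0, 9, 7, 5 and 80 in NTC tumors. As a share of kappa and lambda counts they ran from 4.76% to 20.8% in KO tumors. NTC replicate 1 had none, and NTC replicate 2 had 9 lambda against 3 kappa counts (75.0%). Exons of another gene overlap 6.21% of the exonic bases of *Iglc2* and 20.58% of those of *Iglc3*. Sequence sharing among the lambda genes was not examined, so reads that fit several may be missing from these counts.

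Plasma cell and B cell genes were set against each other within each tumor. *Jchain* exceeded *Ms4a1* in all 5 KO tumors and in NTC replicates 1, 3 and 5, was equal to it at 1 count in NTC replicate 4, and was below it in NTC replicate 2 (1 against 16 counts). With 0.5 added to each count, the log2 ratio of *Jchain* to *Ms4a1* was 2.93 ± 1.59 (SD, n = 5) in KO and 0.63 ± 2.67 (SD, n = 5) in NTC tumors (two-sided exact permutation p = 0.143, adjusted p = 0.381). The log2 ratio of *Igkc* to *Cd79a* was 5.37 ± 2.64 in KO and 3.90 ± 3.31 in NTC tumors (n = 5 each, exact permutation p = 0.532, adjusted p = 0.851). Neither ratio differed beyond the spread between tumors. Without NTC replicate 2 the difference was 1.28 in place of 2.30 for *Jchain* to *Ms4a1*, and 0.136 in place of 1.47 for *Igkc* to *Cd79a*.

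Other genes of both cell types ranged from near 0 to well counted. Of the B cell identity genes, *Pax5*, the factor that keeps B cell identity, had 1 to 11 counts and *Fcer2a*, the low-affinity IgE receptor, had 0 or 1, whereas *Cd72*, a coreceptor of B cells, had 480 to 2013 and *Cd37*, a tetraspanin of leukocytes, 60 to 411. Of the plasma cell genes, *Mzb1*, a chaperone of antibody assembly, had 0 to 5 counts, although 57.2% of its exonic bases overlap exons of another gene, and *Tnfrsf17* (BCMA), a survival receptor of plasma cells, had 0 to 2. *Xbp1* and *Prdm1*, factors of the secretory program that other cells also use, had 737 to 3408 and 53 to 332 counts, and *Sdc1*, a surface proteoglycan of plasma cells and other cells, 711 to 2051. In all, 8 of 18 B cell identity genes and 9 of 13 plasma cell genes passed the filter on low counts. *Ccl21a*, a chemokine of lymph nodes, was at 0 in all 10 tumors and *Glycam1* had 1 count in all.

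The wider lists, on 13 themes, held no gene that passed the correction in edgeR. Of 18 B cell identity genes, 8 were tested; 2 had an unadjusted p under 0.05 and higher levels in KO, and the median log2 fold change was 0.77. The 3 with the most extreme values were *Ly6d*, a surface protein of early B cells and of some other cells (2.46, SE 0.67, edgeR adjusted p = 0.255), *Cd22*, an inhibitory coreceptor of B cells (1.79, SE 0.60, edgeR adjusted p = 0.398), and *Blnk*, an adaptor of B cell receptor signalling (1.39, SE 0.75, edgeR adjusted p = 0.634). *Cd22* had up to 781 counts in a tumor.

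Of 13 plasma cell and secretion genes, 9 were tested, 1 of them with an unadjusted p under 0.05 (higher in KO), with a median of 0.25. *Slamf7*, a receptor that several leukocytes share with plasma cells, had a log2 fold change of 1.22 (SE 0.75), *Tent5c*, which stabilizes antibody RNA, 0.77 (SE 0.40), and *Irf4*, a factor needed for plasma cells, 0.73 (SE 0.54). Of 13 germinal center and class switching genes, 9 were tested, none with an unadjusted p under 0.05, with a median of 0.09; *Tgfb1*, *Gcsam* and *S1pr2* had 0.63 (SE 0.54), 0.28 (SE 0.73) and 0.24 (SE 0.17). Of 16 genes of B cell attraction and survival, 10 were tested, 2 with an unadjusted p under 0.05 (higher in KO), with a median of 0.50. *Ccr7*, a receptor that guides lymphocytes to lymphoid tissue, had 1.96 (SE 0.52, edgeR adjusted p = 0.247), *Ltb*, which organizes lymphoid tissue, 1.37 (SE 0.49, edgeR adjusted p = 0.434), and *Cxcl13*, the chemokine that attracts B cells, -1.45 (SE 1.06, edgeR adjusted p = 0.726).

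These lists moved when NTC replicate 1 was left out, still with no gene past the correction in edgeR. The medians were then 1.52 for B cell identity, 0.54 for plasma cells and secretion, 0.34 for germinal centers and class switching and 1.31 for B cell attraction and survival. An unadjusted p under 0.05, higher in KO, was found for 5 of 9, 5 of 9, 1 of 9 and 7 of 10 genes tested, where 3230 of all 16078 genes had one in either direction. The rise was not confined to B cell genes. In the same edgeR fit, 10 of 10 macrophage, 7 of 10 pan-leukocyte and 4 of 10 T cell genes had one, higher in KO. The medians of those lists were 1.685, 1.504 and 1.478. Whether the B cell lists rose beyond these other leukocyte lists was not tested. *Cxcl13* turned to 0.43 (SE 0.70). *Tgfb1*, *Gcsam*, *Slamf7* and *Blnk* were at 1.30 (SE 0.37), 1.09 (SE 0.57), 1.96 (SE 0.67) and 2.17 (SE 0.65). The other 7 genes given above with a fold change from the B cell lists moved by less than 1.5 times. Of the markers given above by counts, *Cd37* went from 0.72 to 1.52, *Prdm1* from 0.50 to 1.03 and *Sdc1* from 0.24 to 0.54. *Cd72* went from 0.17 to 0.32 and *Xbp1* from 0.25 to 0.23.

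The antibody genes varied with the leukocyte content of the tumors, though not in step with it. *Ptprc* (CD45), carried by leukocytes, was at 318, 569, 153, 112 and 656 CPM in KO and 484, 53.1, 173, 56.4 and 216 CPM in NTC tumors. Relative to 1000 *Ptprc* counts, *Igkc* had 126, 49.3, 12.5, 6.42 and 13.1 counts in KO and 41.2, 1.85, 24.0, 25.2 and 71.4 in NTC tumors. KO replicate 5 had the most *Ptprc* but less *Igkc* than KO replicates 1 and 2 and NTC replicates 1 and 5, all of which had less *Ptprc*. The 10 pan-leukocyte genes together ran from 840 to 3368 CPM in KO and from 526 to 2677 CPM in NTC tumors, and all 10 had fold changes above 0 with none called. With the mean leukocyte level as a covariate, the log2 differences were -0.29 for *Ighm*, -0.26 for *Igkc* and -0.45 for *Jchain*, and 0.027 for *Ighg2b*. That of *Ms4a1* was -1.94 (SE 0.75), with an unadjusted p of 0.0244 that did not pass the correction (edgeR adjusted p = 0.292). The part of leukocyte content in the antibody differences was not tested beyond this fit. T cell genes (33.0 to 174 CPM in KO, 19.6 to 85.4 in NTC tumors) and macrophage genes (983 to 4377 CPM in KO, 313 to 3690 in NTC tumors) covered overlapping ranges. NTC replicate 1 set the upper ends in the NTC group. Without it the pan-leukocyte, T cell and macrophage genes reached 1210, 75.5 and 1405 CPM, which still overlapped the KO tumors. In the edgeR fit without it, 7 of 10, 4 of 10 and 10 of 10 of these genes had an unadjusted p under 0.05, higher in KO. None of them passed the correction.

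The lists of other cells gave the surroundings of these genes. Summed genes of the plasmacytoid dendritic cell list ran from 286 to 437 CPM in KO and from 241 to 397 CPM in NTC tumors, but most of the sum was *Bst2* and *Tcf4*, which many cells express. *Siglech*, the more specific marker, averaged 1.05 CPM in KO and 0.571 CPM in NTC tumors. Its log2 difference was 1.09 (SE 0.62, edgeR adjusted p = 0.643), and 1.87 without NTC replicate 1 (SE 0.40, edgeR adjusted p = 0.102). Lymph node stroma and vessel genes ran from 37.6 to 75.5 CPM in KO and from 73.9 to 100.4 CPM in NTC tumors, most of it *Enpp2* and *Lyve1*, while *Madcam1*, *Glycam1* and *Ccl21a* had 0 to 5 counts in a tumor. Melanoma genes ran from 12230 to 20280 CPM in KO and from 11680 to 22260 CPM in NTC tumors, or from 19770 without NTC replicate 1. Skeletal muscle genes (1.91 to 194 CPM in KO, 1.11 to 3.37 in NTC tumors) and keratinocyte genes (4.14 to 39.98 CPM in KO, 3.64 to 5.93 in NTC tumors) reached further in KO tumors. Their part in the antibody values was not tested.

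**Figure D4:**
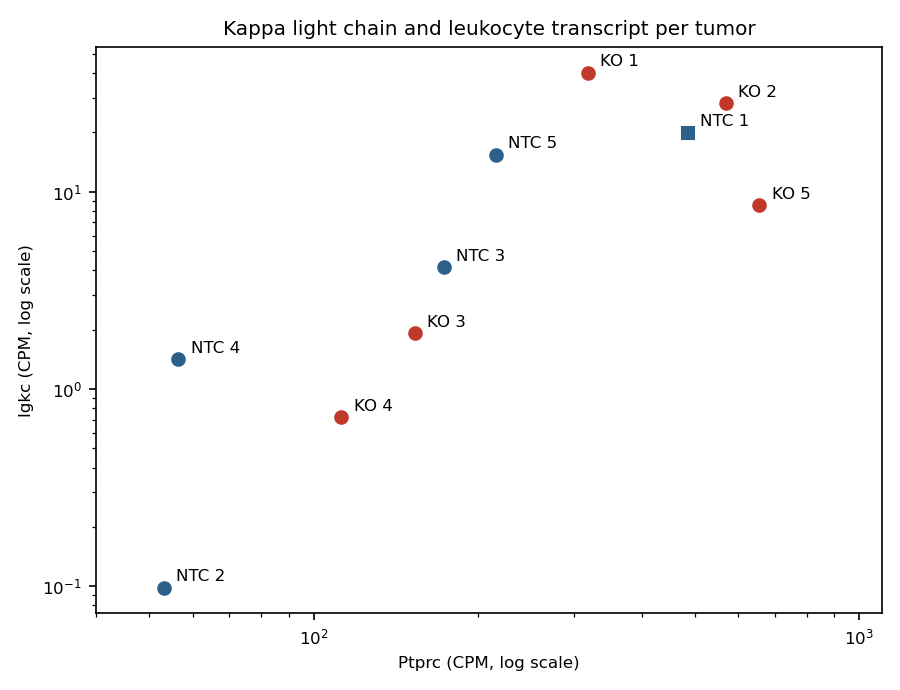
*Igkc* against *Ptprc* in each tumor, both in CPM on log axes, with KO tumors in red, NTC tumors in blue and NTC replicate 1 as a square. The order of the tumors differs between the axes: KO replicate 5 has 8.58 CPM of *Igkc* at the highest *Ptprc*, 656 CPM, and KO replicate 1 has 40.1 CPM at 318 CPM.

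Across the 10 tumors, *Ighm* and *Igkc* had a Pearson correlation of 0.95 in log2 CPM, *Jchain* and *Igkc* 0.95, *Ighg1* and *Igkc* 0.91, and *Ms4a1* and *Igkc* 0.49. Outside the immunoglobulin segments the genes most like *Igkc* were *Jak3* (0.95), *Jchain* (0.95), *Sla2* (0.94), *Cp* (0.94) and *9630010A21Rik* (0.94). Those most like *Ms4a1* were *Mrps18c* (0.95), *Ifi211*, *Ccndbp1*, *Dsel* (0.95 each) and *Dynlt3* (0.94), none of which is a member or a gene of the B cell identity list. These correlations describe 10 tumors that share a treatment and differ in depth, and for *Ms4a1* they rest on 0 to 16 counts.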

How the data were processed

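Total RNA of 10 tumors was sequenced, and the authors deposited, for each tumor, the counts of reads per gene without normalization. Per the labels, the tools were FastQC, Trimmomatic, HISAT2 and HTSeq, with the mm10 build; the strand setting and annotation are not given in the sources used here. The 5 summary rows were left out, and 107 symbols occur on several rows, which were kept apart. Groups came from the sample titles.

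KO was tested against NTC with edgeR 4.0.16 (R 4.3.3; TMM, filterByExpr, quasi-likelihood test, Benjamini-Hochberg adjustment over all genes tested; calls at adjusted p under 0.05 and absolute log2 fold change above 1), where the study used DESeq2, here (1.42.0) an alternative. Log2 CPM used a prior count of 2. Isotype shares and ratios were tested by exact permutation over 252 relabellings in Python 3.11.15 (numpy 2.4.6, pandas 2.3.3, scipy 1.17.1); figures used matplotlib 3.10.9. Positions, exon lengths and sequences came from GENCODE M21. Procedures were tested on simulated data. Values of 0 have a floor of 3 counts, 0.0946 to 0.404 CPM.

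The 10 genes and 13 further lists (131 genes) were chosen with earlier results of these data known. The lists cover B cell identity, plasma cells and antibody secretion, germinal centers and class switching, B cell attraction and survival, lambda light chains, leukocytes, T cells, macrophages, plasmacytoid dendritic cells, lymph node stroma, melanoma cells, skeletal muscle and keratinocytes. Named from the 4 B cell lists are the 3 tested genes with the most extreme fold change, beside defining markers. The variable genes named are the 3 with the most reads in each family; others are marked where they appear. Leaving out NTC replicate 1 with DESeq2, and for the further lists, was added after seeing the data. Some genes of the lists are not reported here.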

Additional observations from a re-analysis of the deposited data

Results flagged for a closer look

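Within groups of 5 tumors, 46 sets of values were searched for a tumor that stands apart by Dixon's gap test, and 8 had one; chance gives about 1 in 20. NTC replicate 1 stood apart in 6 of them: 11896643 reads on genes (other NTC tumors 24145795 to 28682130), 33193 genes with a count (22192 to 23831), a TMM factor of 0.628 (1.02 to 1.11), an *Ighm* share of 63.9% (94.7% to 95.2%), an *Igha* share of 20.5% (0% to 1.35%) and an *Ighg2c* level of 0.36 log2 CPM (-3.67 to -2.53).

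KO replicate 1 stood apart in *Ighg3*, at 0.47 log2 CPM against -3.67 to -2.69 in the other KO tumors, from 32 counts. NTC replicate 2 stood apart in its lambda share, 75.0% against 0% to 15.3% in the other NTC tumors, from 9 lambda and 3 kappa counts.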

How the results depend on the processing

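No setting called any of the genes it tested, which were 7 of the 10 in most settings (*Igha* without a p in DESeq2), all 10 with no filter and 1 under the stricter filter. Over all genes, calls higher and lower in KO numbered 1 and 2 with edgeR, 24 and 72 with DESeq2, 526 and 110 with DESeq2 without NTC replicate 1, 0 and 6 where each tumor had to reach 10 counts, which only *Ighm* of the 10 did, and 4 and 5 with the leukocyte score as a covariate. Lower calls numbered 4 with no fold threshold and 4 with robust dispersion. Leaving out each tumor gave 1 to 2 higher calls and 0 to 15 lower calls, the highest of both without NTC replicate 1; the cause was not tested.

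The replicate numbers did not pair the tumors: same-numbered tumors had correlations of -0.287 to 0.633, and 2 of 5 KO tumors matched their own number best. With the replicate number as a block, 1 higher and 0 lower calls were made, and the *Igha* log2 difference was 1.32 in place of -0.29. That of *Igkc* was 0.38 in place of 0.98, and that of *Ighg1* 0.38 in place of 0.73.

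Directions turned in these cases, none past a threshold. With the leukocyte covariate, the log2 differences of *Ighm*, *Ighg1*, *Igkc* and *Jchain* were -0.29, -0.62, -0.26 and -0.45, and that of *Igha* 0.15. Leaving out single tumors moved *Ighm* from -0.20 (without KO replicate 1) to 1.17, *Ighg1* from -0.33 (without KO replicate 2) to 2.50 (without NTC replicate 1) and *Igha* from -1.79 to 2.98 (0.013 without KO replicate 4). DESeq2 without NTC replicate 1 gave 3.04 for *Igha* and 0.057 for *Ms4a1*. For the shares, in percentage points, that of *Ighg1* was 0.0016 with *Ighd* and *Ighe* in the denominator, and among switched isotypes alone *Ighg2b* was -0.616 and *Igha* 1.43, beside *Ighg1* at -23.1 and *Ighg2c* at 21.9, which kept their direction. Leaving out single tumors moved the shares of *Ighg1* from -1.55 to 1.55, *Ighg3* from -0.111 to 0.205 and *Igha* from -2.55 to 2.56.

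Adjusted p-values over all settings ran from 0.664 to 0.978 for *Ighm*, 0.106 to 0.982 for *Ighg1*, 0.153 to 0.992 for *Ighg2b* and 0.116 to 0.999 for *Igha* (edgeR or DESeq2). Counts under 20 in every tumor limit *Cd79a* and *Ms4a1*, and fewer than 40 variable reads leave 3 tumors out of the comparison of variety.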
